A study of Homo sapiens with 6 samples.

Results

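Long noncoding RNAs were examined in the SK-Hep1 line, which was established from an adenocarcinoma of the human liver, after anti-miR-21 or mock treatment. Candidates were probe sets annotated to 1 gene whose symbol begins with LINC or SNHG, or is MALAT1, NEAT1, GAS5, HOTAIR, H19, PVT1 or MEG3. From these, members were chosen by a mean log2 expression over the 6 arrays of at least 4. This gave 116 probe sets for 85 genes, out of 1127 probe sets for 857 genes with such names and 54675 probe sets on the array. The level that chose them averages both treatments, so a probe set can be a member through the treatment in which it reads higher. LINC00472 on probe set 235771_at, described below, is such a member. By family, the members comprised 101 LINC probe sets (77 genes), 9 SNHG probe sets (7 genes) and 6 MALAT1 probe sets.

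The anti-miR-21 group held 3 arrays of cells transfected by lipid with 20 nM of an oligonucleotide directed against miR-21, and the mock (PBS) group held 3 arrays of cells taken through transfection without it. Cells of both groups were plated 24 hours before transfection and collected 16 hours after it. The samples are labelled total RNA, although the collection protocol cites an Argonaute immunoprecipitation procedure. Mock cells received no control oligonucleotide, so an effect of blocking miR-21 and an effect of carrying any oligonucleotide cannot be told apart.

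Long noncoding RNAs are transcripts without a recognised protein product, most of them spliced and made by RNA polymerase II. MALAT1 is an abundant nuclear RNA found in speckles, where splicing factors collect. SNHG genes are hosts: their introns carry small nucleolar RNAs, which guide chemical modification of other RNAs, and their spliced exons often begin with a run of pyrimidines known from messenger RNAs of the translation machinery. LINC symbols mark intergenic transcripts numbered as they were catalogued, and most have no settled function. MicroRNAs such as miR-21 act through Argonaute on RNAs that pair with the seed. The mature miR-21-5p that the oligonucleotide targets is shown with its seed, bases 2 to 8, in capitals (RefSeq, GRCh38.p14, chr17:59841273-59841294, plus strand).
miR-21-5p: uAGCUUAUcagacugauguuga

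The name "intergenic" held for most of these genes and not for all. Of the 85 genes, 81 matched the RefSeq gene table by identifier, and all 81 are long noncoding genes there. Of those 81, 10 overlap a protein-coding gene when strand is ignored, among them LINC00847, which overlaps ZFP62, and SNHG4, which overlaps MATR3. The members are therefore called long noncoding RNAs below. Several well-known names had no member. The probe sets of NEAT1 (9) and H19 (2) list a further gene, and none of their values were assigned. For the same reason 4 probe sets of GAS5, 4 of PVT1, 31 that name an SNHG gene and 47 that name a LINC gene were set aside, so the values below do not cover these genes in full. HOTAIR had 1 single-gene probe set at a mean of 3.28, PVT1 had 1 at 2.30 and the 10 MEG3 probe sets lay between 1.80 and 3.66. These low values do not show that the RNAs were not expressed.

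At the edge of the level rule, the lowest members were LINC00474 at 4.06, LINC01089 at 4.04 and LINC01569 at 4.01. Just outside lay LINC01134 at 3.95, the host transcript GAS5 at 3.91 and LINC00102 at 3.82. The GAS5 probe set read 4.07, 3.90 and 4.33 in anti-miR-21 arrays, against 3.74, 3.73 and 3.71 in mock arrays, without overlap. Signals of the members were low for this array, whose deposited values give dim probe sets similar low readings. Of the members, 45 (38.8%) had a mean between 4 and 6, compared with 15.9% of the 22408 probe sets tested. The median of member means was 6.54, against 9.02 over all tested probe sets.

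RNA quality and array measures were as follows. The number of probe sets at 4 or above was 22287 to 22591 with anti-miR-21 and 22277 to 22428 in mock. On the first principal component (50.4% of the variance), anti-miR-21 replicates 1 to 3 lay at 3.51, 20.11 and 19.63, and mock replicates 1 to 3 at -7.25, -16.04 and -19.95. Anti-miR-21 replicate 1 and mock replicate 1 were thus the nearest arrays of opposite groups on it. The 3' minus 5' difference along ACTB was 0.606, 0.591 and 0.589 in anti-miR-21 arrays, against 0.628, 0.573 and 0.491 in mock arrays. Of the markers fixed for the cell type, 7 of 8 mesenchymal genes reached 4, led by VIM at 15.71. For hepatocytes, 3 of 9 genes reached 4, with SERPINA1 the highest at a mean of 11.92 and ALB at 2.85 and TTR at 2.26. For endothelium, 3 of 10 reached 4, with ENG the highest at 10.36 and PECAM1 at 3.02. The summed mesenchymal level was 87.8 to 88.4 in anti-miR-21 arrays and 87.6 to 89.3 in mock arrays. For hepatocyte genes these sums were 34.6 to 35.3 and 34.8 to 35.0, and for endothelial genes 38.5 to 39.6 and 38.3 to 38.9, in the same order of groups. For leukocyte genes, with 1 of 5 at 4 or above, they were 15.7 to 15.8 and 15.2 to 15.6.

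The comparison asked which long noncoding RNAs differed between cells given anti-miR-21 and mock cells. With anti-miR-21, LINC01139, LINC00847 and 1 LINC01128 probe set fell, and LINC02910 and 1 MALAT1 probe set rose. The other 111 of the 116 members did not pass the test. The test was limma on the log2 values, with p adjusted over all 22408 probe sets and a threshold of 0.05. It called 4.31% of members, and 2.17% of all probe sets tested. By direction, 3 members fell against a background of 1.07%, and 2 rose against 1.1%. Each call rested on particular arrays. Leaving out anti-miR-21 replicate 2, anti-miR-21 replicate 3 or mock replicate 2 left 0 members called by limma. Of the members, 19, 18 and 22 then had an unadjusted p under 0.05 by limma. The share of all tested probe sets at an unadjusted p is not given here or below, so such counts have no baseline. Calls fell over the whole table too, to 0.473%, 0.428% and 0.433% of all probe sets. With mock replicate 3 left out 2 were called (LINC01139 and LINC00847), with anti-miR-21 replicate 1 left out 5, and with mock replicate 1 left out 6. Of all probe sets, the same fits called 0.826%, 2.55% and 1.88%. As the samples are whole cultures, fewer cells making an RNA and less of it per cell cannot be told apart.

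**Figure D1:**
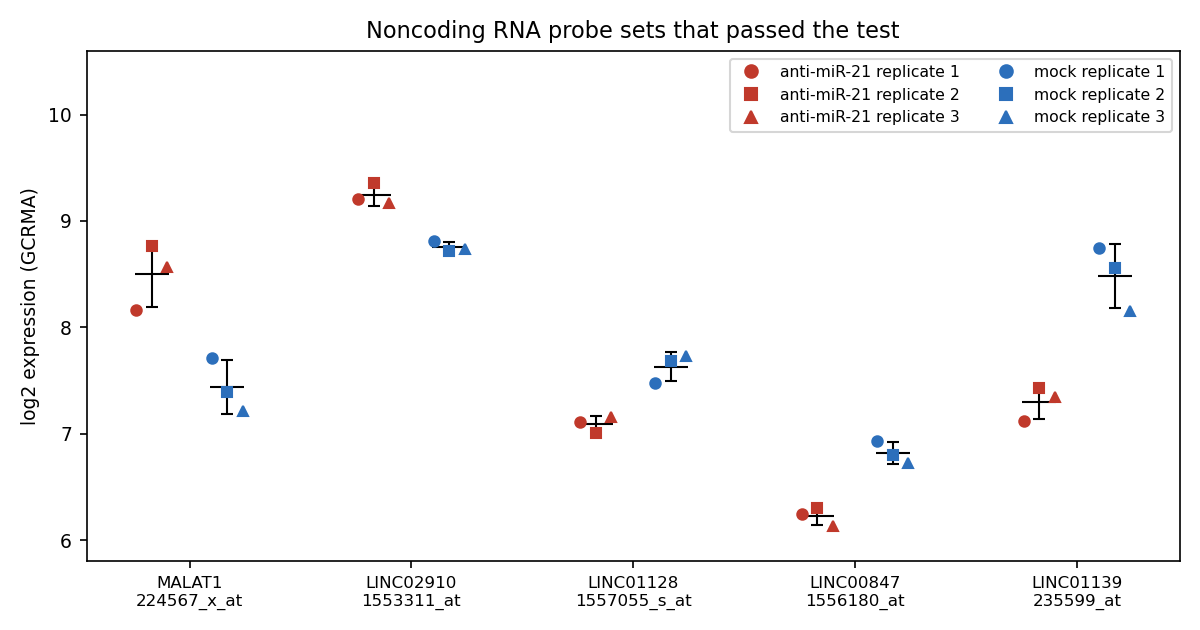
Log2 expression (vertical axis, GCRMA units) of the 5 long noncoding RNA probe sets that passed the test. Red symbols are anti-miR-21 arrays and blue symbols mock arrays, with shape marking the replicate, and black bars give the mean and SD of 3 arrays. In each of the 5 the arrays of the groups did not overlap, and LINC01139 read 7.12 to 7.43 with anti-miR-21 against 8.16 to 8.74 in mock.

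LINC01139, also called LINK-A and studied as a signalling RNA in breast cancer, fell the most of the members. It read 7.12, 7.43 and 7.35 in anti-miR-21 arrays, against 8.74, 8.55 and 8.16 in mock arrays. The highest anti-miR-21 array was thus below the lowest mock array. The mean was 7.30 ± 0.16 with anti-miR-21 and 8.48 ± 0.30 in mock (SD, n = 3), a 2.28-fold lower level (log2 fold change -1.19 ± 0.157 SE, adjusted p = 0.019 by limma). The 95% interval of the log2 fold change ran from -1.56 to -0.81. Its probe set was the 1 member for this gene, so no further probe set could be set beside it.

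LINC00847 read 6.25, 6.30 and 6.14 in anti-miR-21 arrays, against 6.93, 6.80 and 6.72 in mock arrays. The groups did not overlap and the spread within each was small. The level was 1.51-fold lower (log2 fold change -0.59 ± 0.074 SE, adjusted p = 0.0165 by limma). ZFP62, the zinc finger gene that LINC00847 overlaps in RefSeq, had a log2 fold change of -0.14 (adjusted p = 0.37 by limma), and its neighbour MGAT1, an enzyme of glycan synthesis, -0.02 (adjusted p = 0.874 by limma).

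LINC01128 gave different readings with its 3 kept probe sets. The called one, 1557055_s_at, read 7.11, 7.00 and 7.16 in anti-miR-21 arrays, against 7.47, 7.69 and 7.73 in mock arrays. It was 1.45-fold lower with anti-miR-21 (log2 fold change -0.54 ± 0.0824 SE, adjusted p = 0.028 by limma). Probe set 235497_at had a log2 fold change of -0.18 (adjusted p = 0.267 by limma), and 236624_at, at a mean of 4.69, had 0.26 (adjusted p = 0.332 by limma). Measured against the mean of the other 2, the called probe set was lower by a further difference of -0.58 ± 0.099 SE (adjusted p = 0.0495 by limma), where 1.2% of 11061 such differences over all genes were called (0.57% higher and 0.633% lower). That difference missed the threshold with each of the 6 arrays left out in turn (adjusted p = 0.0522 to 0.19 by limma). With the 3 probe sets averaged, LINC01128 had a log2 fold change of -0.15 (adjusted p = 0.251 by limma), so its call belongs to 1 probe set and not to the gene as a whole.

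LINC02910, formerly C20orf197, read 9.20, 9.36 and 9.17 in anti-miR-21 arrays, against 8.81, 8.72 and 8.74 in mock arrays. All anti-miR-21 arrays stood above all mock arrays. The level was 1.40-fold higher (log2 fold change 0.49 ± 0.0657 SE, adjusted p = 0.0198 by limma).

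**Figure D2:**
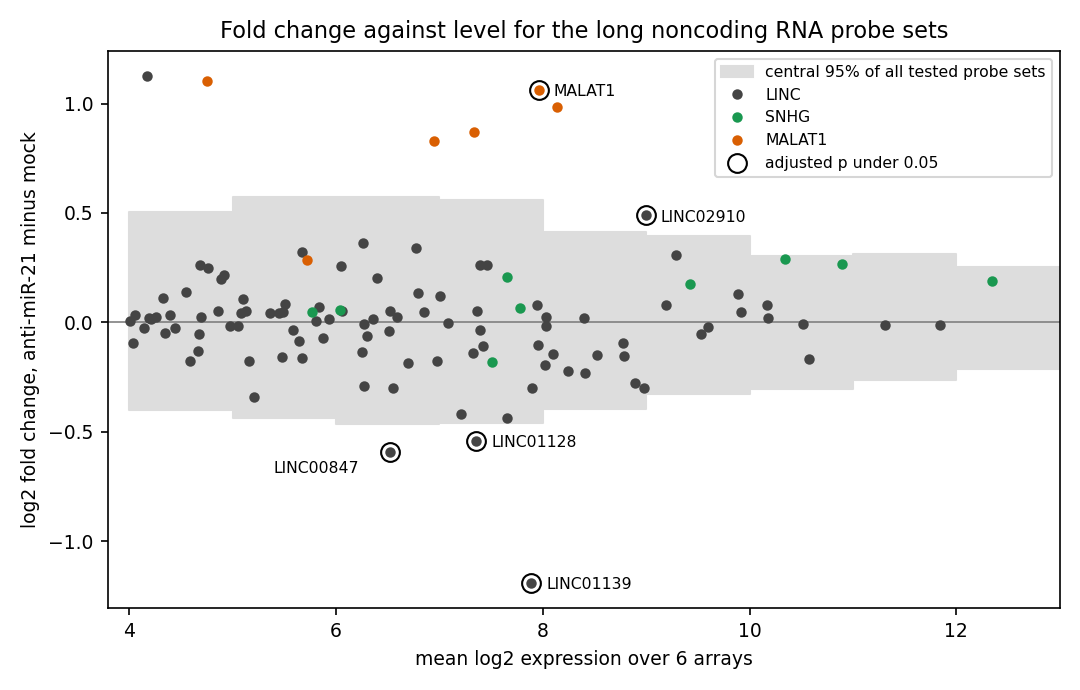
Log2 fold change, anti-miR-21 minus mock (vertical axis), against mean log2 expression over 6 arrays (horizontal axis) for the 116 member probe sets, with LINC in dark grey, SNHG in green and MALAT1 in orange. The light grey band holds the central 95% of all tested probe sets at each level, and rings mark adjusted p under 0.05. Of the members, 7 lay above the band and 3 below it, and 5 of the 6 MALAT1 points were above.

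MALAT1 was represented by 12 single-gene probe sets, of which 6 met the level rule. The other 6 had means between 2.20 and 3.32. In each of the 6 members the mean was higher with anti-miR-21, with log2 fold changes of 0.29 to 1.10 and a median of 0.93. These probe sets read 1 transcript and are not independent of each other. The called probe set, 224567_x_at, read 8.16, 8.76 and 8.57 in anti-miR-21 arrays, against 7.71, 7.39 and 7.21 in mock arrays. The groups did not overlap, and the level was 2.09-fold higher (log2 fold change 1.06 ± 0.182 SE, adjusted p = 0.0406 by limma). Its type, marked _x_at, can cross-hybridise with other transcripts, and this limit holds for each member probe set below with that ending.

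A second MALAT1 probe set, 224558_s_at, also separated the groups. It read 7.54, 7.87 and 7.90 in anti-miR-21 arrays, against 6.94, 6.52 and 7.24 in mock arrays (log2 fold change 0.87 ± 0.188 SE, adjusted p = 0.0778 by limma). In the remaining 4 the groups overlapped. In 1558678_s_at the readings were 7.97, 9.03 and 8.89 with anti-miR-21 and 8.08, 7.37 and 7.49 in mock (log2 fold change 0.99 ± 0.311 SE, adjusted p = 0.172 by limma). Anti-miR-21 replicate 1 was the low array and mock replicate 1 the high one, and without anti-miR-21 replicate 1 this probe set passed (adjusted p = 0.0447 by limma). Probe set 226675_s_at had a log2 fold change of 0.83, 223940_x_at of 1.10 and 224559_at of 0.29 (adjusted p = 0.403, 0.354 and 0.689 by limma). Without mock replicate 3 the log2 fold change of 224559_at was -0.09.

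Averaged over the 6 probe sets, MALAT1 stood at 6.73, 7.62 and 7.37 in anti-miR-21 arrays, against 6.85, 6.12 and 6.18 in mock arrays. Anti-miR-21 replicate 1 lay below mock replicate 1, so the groups overlapped at the level of the gene. The log2 fold change of this average was 0.86 ± 0.264 SE (95% interval 0.24 to 1.48), and it did not pass (adjusted p = 0.132 by limma, in a fit of gene averages that called 3.27% of 10848 genes). The 2 arrays that cross over are the same ones that lay nearest each other on the first principal component. The part of that shared array pattern in the MALAT1 difference was not tested.

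**Figure D3:**
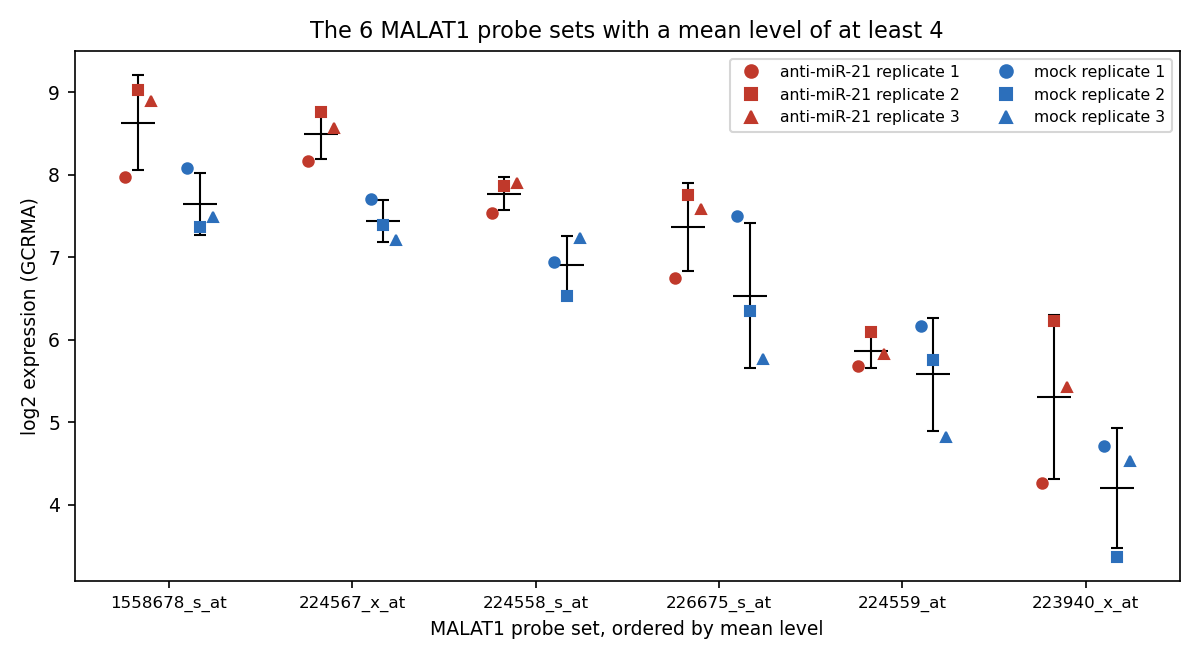
Log2 expression (vertical axis, GCRMA units) of the 6 MALAT1 probe sets, ordered by mean level from left to right. Red symbols are anti-miR-21 arrays, blue symbols mock arrays, shapes mark replicates, and black bars give mean and SD of 3 arrays. The groups are apart in 224567_x_at and 224558_s_at and overlap in the other 4, where anti-miR-21 replicate 1 is the lowest anti-miR-21 array.

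No speckle protein of those listed as surrounding MALAT1 passed the test. Of 17 listed genes 16 were measured and 11 had a positive log2 fold change. By limma on their representative probe sets 0 passed, against 2.13% of 10848 genes (0.913% higher and 1.22% lower). Of the 16, 3 had an unadjusted p under 0.05 by limma. The list's median log2 fold change was 0.03 (-0.02 over all genes). CLK4 and CLK1, kinases of splicing factors, had log2 fold changes of 0.28 and 0.25 (adjusted p = 0.12 and 0.254 by limma). With probe sets averaged CLK4 passed (0.30, adjusted p = 0.0381 by limma). FRMD8, a coding neighbour of MALAT1, had a log2 fold change of -0.05 (adjusted p = 0.769 by limma).

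Most SNHG probe sets showed small positive differences, and none passed. SNHG17 and SNHG33 have 2 probe sets each, and probe sets of 1 gene are not independent of each other. Of 9 probe sets, 8 had a positive log2 fold change, where 49.1% of all tested probe sets did. By limma 0 of the 9 passed, where 2.17% of all tested probe sets did. At an unadjusted p under 0.05 by limma there were 4, a count with no share over all probe sets beside it. The median was 0.17, against -0.0027 over all tested probe sets. In 3 of the 9 (SNHG19, SNHG32 and the probe set 225857_s_at of SNHG17) the anti-miR-21 arrays stood above the mock arrays without overlap, which was so for 11.4% of all tested probe sets.

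The starts of all 7 host genes are shown because a pyrimidine run there is a feature that the choice of members did not use. Each line gives 50 bases before and 30 bases from the annotated start (RefSeq, GRCh38.p14), with the start base and any run of at least 5 C or T bases that opens with C at the start in capitals, and TATAAA, on either strand, also in capitals.
SNHG19 (chr16:2155329-2155408, minus strand): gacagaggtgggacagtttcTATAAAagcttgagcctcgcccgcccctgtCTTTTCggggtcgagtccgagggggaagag
SNHG32 (chr6:31834866-31834945, plus strand): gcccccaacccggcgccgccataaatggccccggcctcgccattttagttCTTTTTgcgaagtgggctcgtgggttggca
SNHG4 (chr5:139274051-139274130, plus strand): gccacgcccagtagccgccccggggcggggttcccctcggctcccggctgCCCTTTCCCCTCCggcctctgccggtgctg
SNHG18 (chr5:9546150-9546229, plus strand): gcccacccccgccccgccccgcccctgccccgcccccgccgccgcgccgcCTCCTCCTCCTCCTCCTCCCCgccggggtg
SNHG17 (chr20:38435299-38435378, minus strand): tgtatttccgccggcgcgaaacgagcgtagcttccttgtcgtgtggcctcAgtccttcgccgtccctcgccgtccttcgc
SNHG10 (chr14:95534843-95534922, minus strand): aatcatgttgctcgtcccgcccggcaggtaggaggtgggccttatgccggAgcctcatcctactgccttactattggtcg
SNHG33, first of 2 listed starts (chr3:183447558-183447637, plus strand): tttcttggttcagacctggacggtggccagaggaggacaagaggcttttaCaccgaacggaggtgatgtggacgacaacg
SNHG33, second start (chr3:183447601-183447680, plus strand): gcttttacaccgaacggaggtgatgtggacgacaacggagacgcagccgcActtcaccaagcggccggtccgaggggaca

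For comparison the starts of MALAT1 and of the called LINC genes with an entry are given in the same way. MALAT1 has 2 annotated starts, and the downstream one is shown. The same window of the upstream one (chr11:65497688-65497767, plus strand) holds no TATAAA and no pyrimidine run at its start.
MALAT1 (chr11:65498995-65499074, plus strand): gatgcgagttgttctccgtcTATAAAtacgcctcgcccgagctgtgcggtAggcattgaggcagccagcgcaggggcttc
LINC02910 (chr20:60055875-60055954, plus strand): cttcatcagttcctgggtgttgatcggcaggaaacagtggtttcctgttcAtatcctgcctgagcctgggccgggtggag
LINC00847 (chr5:180830907-180830986, plus strand): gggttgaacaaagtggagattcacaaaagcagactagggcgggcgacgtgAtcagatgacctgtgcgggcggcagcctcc

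A pyrimidine start was present in 4 of the 7 SNHG genes (SNHG4, SNHG18, SNHG19 and SNHG32) and in 6 of the 62 LINC genes with an entry, among them LINC01116 and LINC00460. Over all 27305 genes with a RefSeq entry it was present in 5.14%. SNHG17, SNHG10 and SNHG33 had none at their listed starts. TATAAA, searched on both strands of the 300 bases around the start, was found in 13 of the 70 member genes with an entry and in 14.0% of all genes. A match describes the letters of that window and shows no binding. Among hosts with the run, the log2 fold change was 0.26 for SNHG19, 0.21 for SNHG4, 0.19 for SNHG32 and 0.05 for SNHG18, whose run of 21 bases was the longest. Among hosts without it, averages over the probe sets of each gene were 0.23 for SNHG17, 0.06 for SNHG10 and -0.06 for SNHG33. The ranges of both sets overlapped, and whether the run bears on the difference was not tested.

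SNHG19, whose gene contains SNORD60, read 11.03, 10.95 and 11.11 in anti-miR-21 arrays, against 10.70, 10.80 and 10.79 in mock arrays. The arrays did not overlap and the log2 fold change was 0.26 ± 0.0617 SE (95% interval 0.12 to 0.41, adjusted p = 0.091 by limma). Its probe set is of the type that can cross-hybridise. SNHG32, formerly C6orf48 and host of SNORD48 and SNORD52, read 12.42, 12.37 and 12.52 with anti-miR-21 and 12.18, 12.28 and 12.28 in mock (log2 fold change 0.19 ± 0.0617 SE, adjusted p = 0.181 by limma). SNHG17, which holds the SNORA71 genes, read 10.34, 10.48 and 10.64 with anti-miR-21 and 10.02, 10.27 and 10.32 in mock on probe set 225857_s_at (log2 fold change 0.29 ± 0.108 SE, adjusted p = 0.232 by limma). Its lowest anti-miR-21 array and highest mock array almost met.

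SNHG4, host of SNORA74A, overlapped between groups, with 7.61, 7.83 and 7.84 in anti-miR-21 arrays, against 7.66, 7.49 and 7.52 in mock arrays (log2 fold change 0.21 ± 0.0829 SE, adjusted p = 0.259 by limma). MATR3, a nuclear matrix protein gene that overlaps it, had 0.38 (adjusted p = 0.235 by limma), and array probes cannot always separate overlapping genes. SNHG10, host of SCARNA13, had a log2 fold change of 0.06 (adjusted p = 0.761 by limma). The 2 probe sets of SNHG33 differed in sign, at 0.07 for 228275_at and -0.18 for 236798_at (adjusted p = 0.605 and 0.319 by limma).

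**Figure D4:**
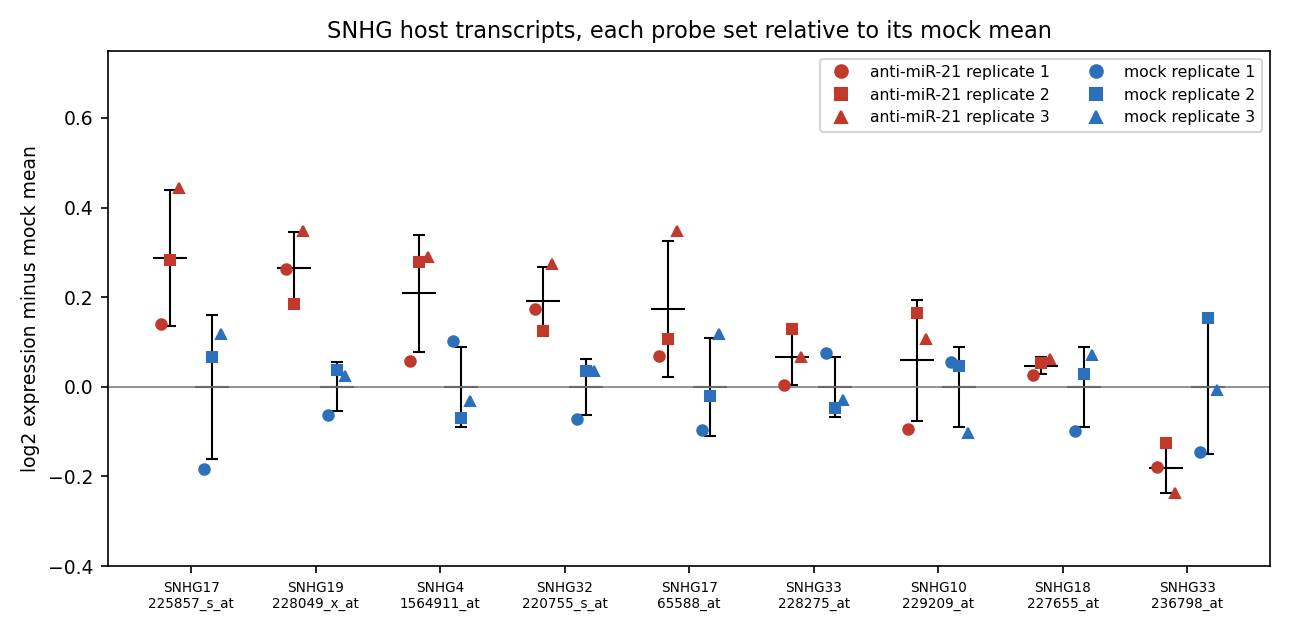
Log2 expression of the 9 SNHG probe sets minus the mean of the mock arrays of the same probe set (vertical axis), ordered by log2 fold change. Red symbols are anti-miR-21 arrays, blue symbols mock arrays, shapes mark replicates, and black bars give mean and SD of 3 arrays. The means with anti-miR-21 lie above 0 in 8 of 9 probe sets, by at most 0.29, and the exception is probe set 236798_at of SNHG33 at -0.18.

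No listed protein that assembles with the small nucleolar RNAs passed either. Over all 10848 genes 2.13% were called, so lists as short as those below would hold few or no calls. Of 17 listed genes 15 were measured, 5 had a positive log2 fold change and 0 were called by limma (4 at an unadjusted p under 0.05), with a list median of -0.06. NOP58, a core protein of the box C/D particle, had 0.19 and the assembly factor ZNHIT3 -0.21 (adjusted p = 0.174 and 0.112 by limma). Among 15 messenger RNAs known for a pyrimidine start, 12 were measured and 0 passed by limma (1 at an unadjusted p under 0.05, median 0.01), with HNRNPA1, an RNA-binding protein, at 0.16 and the translation factor EIF3H at -0.13 (adjusted p = 0.199 and 0.339 by limma). HNRNPA1 passed with its probe sets averaged (0.81, adjusted p = 0.0392 by limma).

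Host transcripts of small nucleolar RNAs are known substrates of nonsense-mediated decay, so its factors were listed. Of 14 genes 8 were measured, 1 had a positive log2 fold change, 1 fell and 0 rose (median -0.11), where 1.22% of all 10848 genes fell and 0.913% rose. SMG9, a partner of the decay kinase SMG1, averaged 7.58 ± 0.23 with anti-miR-21 and 8.62 ± 0.14 in mock (SD, n = 3, log2 fold change -1.05 ± 0.128 SE, adjusted p = 0.0152 by limma). Its call was lost without anti-miR-21 replicate 2, mock replicate 2 or mock replicate 3 (adjusted p = 0.0725, 0.0689 and 0.0594 by limma). UPF1, the decay helicase, had -0.20 (adjusted p = 0.112 by limma). Whether the SMG9 difference bears on the host transcripts was not tested.

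Among LINC members, positive and negative differences were evenly split, with 50 positive and 51 negative. The groups were apart in 13 upward and 12 downward. Over all 116 members the groups were apart in 25.9%, and over all tested probe sets in 24.0%. In size, 81 of 116 members had a log2 fold change under 0.2 and 9 reached 0.5. The median size was 0.11 and its upper quartile 0.25 over members, against 0.085 and 0.165 over all tested probe sets. With sign kept, the median over members was 0.02, with quartiles at -0.11 and 0.12. Over all tested probe sets the median was -0.0027, with quartiles at -0.09 and 0.08. Of the 45 members with a mean under 6, limma called 0 (2 at an unadjusted p under 0.05). Calls at that level were rare among all tested probe sets too, with 26 of 3574. At means of 6 to 8 it called 4 of 41 members and 116 of 4474 tested probe sets. At 8 and above it called 1 of 30 members and 344 of 14360.

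Downward differences that missed the threshold included LINC01588, formerly C14orf182, on both of its kept probe sets. Its probe set 237460_x_at read 7.57, 7.27 and 7.46 in anti-miR-21 arrays, against 7.76, 7.96 and 7.89 in mock arrays, with no overlap (log2 fold change -0.44 ± 0.0918 SE, adjusted p = 0.0724 by limma). Probe set 239777_at had -0.30 (adjusted p = 0.116 by limma), also with no overlap. Averaged, LINC01588 had -0.37 ± 0.079 SE (adjusted p = 0.0545 by limma among gene averages). LINC00973 had -0.42 with overlapping groups (adjusted p = 0.403 by limma).

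LINC00667 and LINC00339 are named here after their values were seen. The 3 kept probe sets of LINC00667 had log2 fold changes of -0.20 to -0.04, the largest in size on 226235_at. Their average was -0.14 (adjusted p = 0.193 by limma among gene averages). On probe set 226235_at LINC00667 read 7.93, 7.93 and 7.92 in anti-miR-21 arrays, against 8.12, 8.12 and 8.14 in mock arrays, a narrow spread within each group (log2 fold change -0.20 ± 0.0439 SE, adjusted p = 0.0853 by limma). LINC00339 read 8.85, 8.81 and 8.84 with anti-miR-21 and 9.00, 9.24 and 9.16 in mock (log2 fold change -0.30 ± 0.0691 SE, adjusted p = 0.0883 by limma), and it passed without mock replicate 1.

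Among upward LINC differences, the largest was the least certain. LINC00472 on probe set 235771_at read 3.61, 4.69 and 5.90 in anti-miR-21 arrays, against 3.58, 3.66 and 3.59 in mock arrays (log2 fold change 1.13 ± 0.512 SE, adjusted p = 0.313 by limma). Anti-miR-21 replicate 1 was within the mock range, and the mean met the level rule through anti-miR-21 replicates 2 and 3. Its other probe set, 220324_at, had a log2 fold change of -0.16. LINC01000 on probe set 227129_x_at had 0.36 (adjusted p = 0.203 by limma). LINC-PINT, an RNA induced by p53, had 0.34 and LINC02076 on probe set 1564383_s_at 0.32 (adjusted p = 0.2 and 0.147 by limma). In LINC-PINT the readings were 6.71, 6.98 and 7.14 with anti-miR-21 and 6.62, 6.69 and 6.49 in mock, so the groups were apart by a small margin.

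The 5 LINC probe sets with the highest signal had narrow differences. LINC01116, an RNA reported in several tumours, averaged 11.83 ± 0.03 with anti-miR-21 and 11.85 ± 0.03 in mock (SD, n = 3), and the 95% interval of its log2 fold change ran from -0.13 to 0.10. LINC01279 had an interval of the same bounds, -0.13 to 0.10. LINC01234 had -0.15 to 0.19, LINC00674 on probe set 227567_at -0.25 to 0.23 and LINC01293 -0.34 to 0.01. Signals of different probe sets do not rank the RNAs by abundance.

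Probe sets of 1 gene did not always share a sign. Among the 20 genes with at least 2 members, 9 had the same sign throughout and 11 had both signs. The difference between a probe set and the rest of its gene was tested 37 times among members, and the 1 that passed was that of LINC01128. When each gene was averaged, 3 of 85 genes passed (LINC00847, LINC01139 and LINC02910, each with a single member), beside 3.27% of all genes (1.48% higher and 1.79% lower).

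Some of these RNAs are known for their place beside coding genes, so the nearest coding gene on each side was taken from the RefSeq order. Of 159 such neighbours 92 were measured, 1 fell and 0 rose, against 2.13% called among 10848 genes. It was NEU1, the lysosomal sialidase and a neighbour of SNHG32, which averaged 10.23 ± 0.03 with anti-miR-21 and 10.79 ± 0.04 in mock (SD, n = 3, log2 fold change -0.56 ± 0.0489 SE, adjusted p = 0.00563 by limma). NEU1 was called with each array left out in turn (adjusted p = 0.0148 to 0.0405 by limma). SNHG32 itself had a log2 fold change of 0.19, of the opposite sign. Of the 12 overlapping coding genes 5 were measured and 0 were called by limma (2 at an unadjusted p under 0.05).

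Protein partners of other long noncoding RNAs were also listed. Here too 2.13% of all 10848 genes were called, so short lists would hold few or no calls. For paraspeckle proteins, which assemble on NEAT1, 12 of 15 genes were measured, 9 had a positive log2 fold change and 0 passed by limma (1 at an unadjusted p under 0.05, median 0.05). CPSF6, a cleavage factor, had -0.22 and SMARCA4, a chromatin remodeller, 0.17 (adjusted p = 0.168 and 0.3 by limma). With its probe sets averaged CPSF6 was at 0.18, the opposite sign (adjusted p = 0.158 by limma). SFPQ, a core paraspeckle protein, had 0.13 (adjusted p = 0.322 by limma) and passed with its probe sets averaged (0.32, adjusted p = 0.0431 by limma), and is named here for that reason. Of the Polycomb repressive complex 2 and KDM1A partners, linked to HOTAIR and other RNAs, 12 of 12 were measured and 0 passed by limma (1 at an unadjusted p under 0.05, median 0.01), with JARID2 at -0.19 and EED at -0.12 (adjusted p = 0.148 and 0.285 by limma).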

How the data were processed

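The authors deposited log2 expression values, 1 column for each array. GCRMA is the method named in the submitters' processing notes (version and settings not given in the sources used here). There were 6 one-colour arrays. These values were used without further normalization. Depth has no meaning for arrays, and the 3 arrays a group limit the precision. Control probe sets were left out, and 22408 probe sets with a mean of at least 4 entered a two-sided comparison of anti-miR-21 minus mock without covariates, fitted by lmFit and eBayes (limma 3.58.1, R 4.3.3). All their p values were adjusted together by Benjamini-Hochberg. Genes outside the members are represented by the brightest of their single-gene probe sets. Symbols come from the platform annotation. Where groups are given as mean ± SD, n is arrays. The labels call replicates biological without naming separate cultures, and the p values then measure no more than the spread among these arrays, which may be technical.

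Members and gene lists were chosen with earlier results of these data known. Named members were those called, the MALAT1 and SNHG probe sets, the 5 LINC probe sets with the largest difference each way, the 5 with the highest signal and those at the edge of the level rule. For each partner list the called genes and the 2 with the smallest p were named, and for neighbours the called genes. Promoter windows and miR-21 come from RefSeq (GRCh38.p14), where 70 of 85 genes had a promoter entry. On simulated data for this comparison (22408 probe sets), limma recovered 89 of 100 changes of 1.5-fold and 98 of 100 of 2-fold, with 16 false calls. The test of probe sets against the rest of their gene (11061 differences) recovered 96 of 100 shifts of 2-fold, with 15 false calls. The simulated noise was independent between probe sets and arrays. It held no array pattern shared by many probe sets, so these rates need not hold for the real arrays. Alternatives varied the filter, the scaling, the variance model, array weights, probe set averaging, a replicate block and each array left out.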

Additional observations from a re-analysis of the deposited data

How the results depend on the processing

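With each array left out in turn, the number of members called ranged from 0 to 6 (higher 0 to 3, lower 0 to 4), the median log2 fold change of members from 0.0046 to 0.031, partner genes called from 0 to 1, members apart from their gene from 0 to 1 (the 1 is LINC00472 220324_at, without anti-miR-21 replicate 1), and neighbours called stayed at 1 (an alternative added after seeing the data). Of all probe sets, 0.428% to 2.55% were called with 1 array left out. The 5 called members kept their direction under all 15 alternatives. LINC00847 and LINC01139 passed 11 of them (adjusted p up to 0.0804 and 0.0915), LINC02910 10 (up to 0.103), MALAT1 224567_x_at 8 (up to 0.147) and LINC01128 7 (up to 0.251).

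Without the level filter 1 member was higher, in place of 2. Averaging probe sets left 3 members called, 1 of them higher, with 4 partner genes called in place of 1. Array weights called 31 members (17 higher, 14 lower) and 22.1% of all probe sets, with mock replicate 2 weighted 7.43. The median of members was -0.0041 with the filter at 6, which tests 71 members, and -0.0017 with quantile normalization. With the replicate number as a block, 0 members were called by limma (0 higher, 0 lower), with 23 at an unadjusted p under 0.05 and a lowest adjusted p of 0.0606, while 91 of all probe sets were called in place of 486. NEU1 had an adjusted p of 0.0554 in that fit. Same-numbered arrays correlated at -0.361, -0.266 and -0.0019 in their deviations from the group means, and no array correlated best with its own number. With 3 arrays a group these correlations cannot decide whether same-numbered arrays were handled together. The cause of these changes was not tested.

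Signs turned for members near 0. Under quantile normalization LINC00674 was at 0.0060, LINC01569 at -0.042 and LINC00474 at -0.0048. With array weights LINC01089 was at 0.011. With probe sets averaged SNHG33 was at -0.057 and CPSF6 at 0.18. With 1 array left out the ranges crossed 0 for MALAT1 224559_at (-0.091 to 0.58), SNHG18 (-0.0026 to 0.082), LINC01234 (-0.039 to 0.065), LINC01279 (-0.034 to 0.0050), LINC01116 (-0.029 to 0.0048), LINC00674 (-0.12 to 0.073), LINC01569 (-0.0095 to 0.027), LINC01089 (-0.17 to 0.044) and LINC00474 (-0.036 to 0.15). The median of the arrays differed by 0.00165 between groups, which is the shift that median centring removes. The 45 members with a mean under 6 lie near the level to which GCRMA pulls dim probe sets, which limits what their differences can show.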
